A study of Arabidopsis thaliana with 6 samples.

Results

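The GDSL esterases and lipases are a large plant family of enzymes that cut or transfer acyl groups. The genes described here are a list of 60 Arabidopsis thaliana loci of this family, chosen with earlier results of these data known. Of these, 51 could be followed on the arrays, among 13355 genes with a probe set of their own. The study raised seedlings of the Landsberg (LER-0) ecotype in darkness in Petri-dish fixation hardware held in canisters, and profiled RNA from their shoots on Affymetrix ATH1-type arrays. One group of 3 arrays holds seedlings that grew aboard the space shuttle and the other group of 3 arrays holds ground control seedlings, with the replicate numbers 2, 3 and 4 in each group. Both groups share the ecotype, the darkness and, as far as the labels go, the hardware, and neither carries a transgene, a mutation or a drug in the labels. Seedling age, the number of seedlings pooled per array and the dish or canister behind each array are not given. The p-values therefore cover the spread among these arrays alone, and part of that spread may be technical. The sample titles carry a letter F for flight and H for ground that is not explained and cannot be told apart from the group. All values are log2 expression values as deposited, on which 1 unit is a doubling.

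GDSL enzymes are named for the Gly-Asp-Ser-Leu motif around the serine that attacks the ester bond. Many are secreted, and members of the family have been shown to join cutin monomers into the polyester of the cuticle outside the epidermis, to build and to remove suberin in the root endodermis, to lower the oil content of seeds, and to act in the pollen coat. Most members have no assigned role, and in a dark-grown shoot, where the hypocotyl lengthens quickly, the cuticle has to grow along with the epidermal wall.

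Flown shoots had higher transcript levels of 12 of the 51 GDSL genes, and 0 were lower, at an adjusted p under 0.05 in limma over all 22746 probe sets. Over all probe sets 4.13% were higher in flight and 1.82% lower, and over all genes taken with 1 probe set each 3.47% were higher and 1.51% lower, against 23.5% of the GDSL genes higher. The list was chosen with earlier results of these data known and does not hold the whole family. These shares therefore describe the list and do not test whether the family rose. The 12 differences ran from 1.86-fold in AT1G09390 to 11.9-fold in AT5G45670, with a median log2 difference of 1.99, and 9 of them were at least 1 on the log2 scale, which 2.37% of all genes reached as a called rise. The median log2 difference over the 51 genes was 0.080, and over all genes it was -0.04. Because these are bulk samples, more cells of a type and more RNA per cell cannot be told apart.

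**Figure D1:**
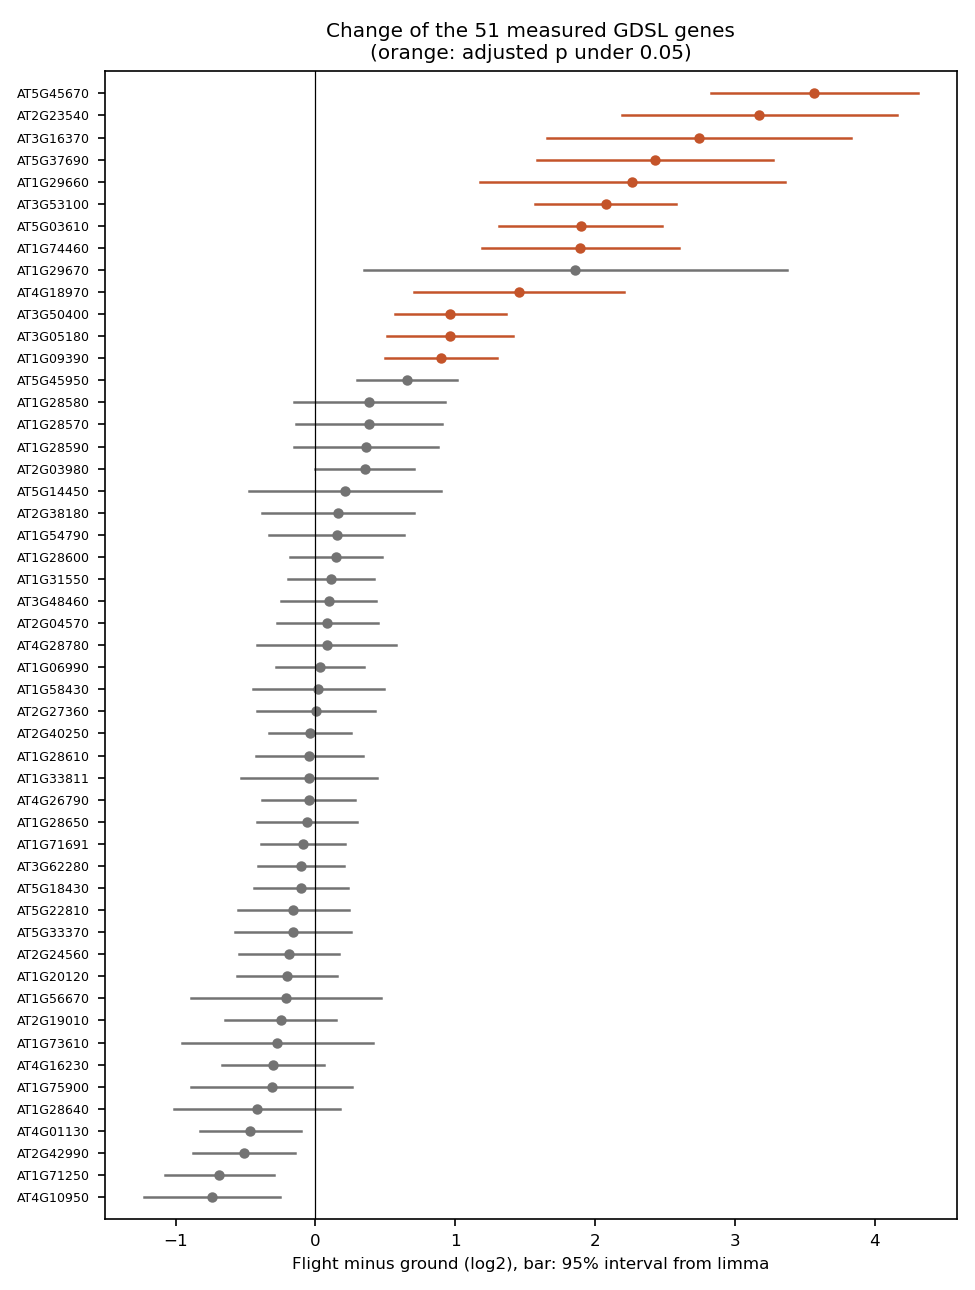
Flight minus ground difference (log2, x axis) of each of the 51 measured GDSL genes (y axis), with the 95% interval from limma as a bar; orange marks an adjusted p under 0.05. The 12 called genes all lie to the right of 0, and the largest difference is 3.57 in AT5G45670.

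The arrays themselves set limits that touch these genes. Array medians lay between 2.15 and 2.24, and 30 of the 51 GDSL genes read below the array median on all 6 arrays, where no detection call is given and a gene cannot be called expressed or not. Only 4 read above the median on all 6, and 17 did so on some. Transcripts of a seed storage list differed within the groups. Of its 16 genes, 3 were measured: PAP85 and the oleosin genes OLEO3 and AT3G01570. The mean of these 3, called the seed storage mean below, was 2.46, 1.81 and 4.96 in flight replicates 2, 3 and 4. In ground replicates 2, 3 and 4 it was 1.78, 8.44 and 8.53. The hybridization spike-ins averaged 9.61 in ground replicate 4 and between 10.13 and 10.20 on the other arrays. Of the shoot markers, 2 of 15 were measured: RCA and LHCB4.1, of photosynthesis, read from 5.59 to 6.91 on all arrays. RCA differed by 0.59 and LHCB4.1 by -0.35, both with overlapping groups, and neither was called. Of the root markers, 3 of 15 were measured: the root hair expansin genes EXPA7 and EXPA18 stood between 0.96 and 1.89. PYK10, a beta-glucosidase gene strong in roots, read 10.87, 10.71 and 10.77 in flight replicates 2, 3 and 4 and 10.56, 10.61 and 9.45 on the ground, so every flight array lay above every ground array (difference 0.57, adjusted p 0.359). The mean of the 3 root markers was 4.33 to 4.53 in flight and 4.01 to 4.59 on the ground. Of the epidermis and stomata markers, 4 of 12 were measured, with a mean of 1.58 to 1.78 in flight and 1.27 to 1.65 on the ground, and 0 were called. Among them ACR4, an epidermal receptor kinase gene, differed by 0.53 with overlapping groups. SPCH, a regulator of stomatal lineage entry, lay above every ground array in flight (0.32, gap 0.026). FAMA, a guard cell regulator, lay below every ground array (-0.15, gap 0.024). SPCH, FAMA and the remaining marker, MUTE, read below the array median on all 6 arrays. Over all genes 12.4% lay above every ground array in flight and 12.1% below, so such a pattern, also in PYK10, is common. The part of these markers in the differences below was not tested.

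AT5G45670 showed the largest difference of the family. It read 5.84, 5.42 and 5.13 in flight replicates 2, 3 and 4, and 2.14, 2.30 and 1.24 in ground replicates 2, 3 and 4. The lowest flight array was 2.83 above the highest ground array, and the ground values sat near or under the array medians. The log2 difference was 3.57 (SE 0.32, limma adjusted p 0.00354), an 11.9-fold rise with a 95% interval of 7.09 to 19.9, and the 4th largest of 13355 genes. No detection call separates signal from background at the ground readings, so that fold may rest in part on the floor of the arrays, which was not tested.

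AT2G23540 rose by 3.18 (SE 0.42, adjusted p 0.00989), or 9.03-fold as read. Its flight values were 4.41, 4.29 and 5.39, and its ground values 2.30, 0.93 and 1.33. With ground readings near or under the array medians, that fold too may rest in part on the floor. Flight replicate 4 was the high array here, whereas AT5G45670 was lowest on that array within the flight group. A comparison restricted to the 3 arrays low in seed storage transcripts set ground replicate 2 against flight replicates 2 and 3. There the difference of AT2G23540 was 2.05 and that of AT5G45670 was 3.49. The ground side of that comparison is 1 array with no replicate, so its p-values, here and below, take their spread from the flight pair and limma's prior and assume that the lone ground array varies alike.

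AT3G53100 had the smallest standard error among the rises of more than 2 log2 units. Its flight values were 4.20, 3.62 and 4.14 and its ground values 1.88, 1.68 and 2.19. The groups stood 1.43 apart and the difference was 2.07 (SE 0.21, adjusted p 0.00503). Every ground value lay below the median of its array, so the size of the rise and its small error may rest in part on the floor. AT5G45670, AT2G23540 and AT3G53100 passed the threshold whichever array was left out.

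AT5G03610 was the only one of the 12 that read above the array median on every ground array. It read 6.37, 6.59 and 6.41 in flight and 5.10, 4.15 and 4.42 on the ground. The flight arrays agreed closely, with an SD of 0.12 against 0.49 on the ground, and the rise was 1.90 (SE 0.25, adjusted p 0.00983), or 3.72-fold. The adjusted p was 0.0558 without flight replicate 3 and 0.0527 on the 3 low-storage arrays, with a range of 0.00208 to 0.0558 over the alternatives.

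AT5G37690 read 5.04, 3.53 and 4.21 in flight and 1.89, 1.98 and 1.62 on the ground. The flight arrays spread widely, with replicate 2 highest, while the ground arrays lay close together below their medians. It rose by 2.43 (SE 0.36, adjusted p 0.0140). AT1G74460 had its widest spread in flight too, with another array on top. It read 3.08, 2.66 and 3.90 in flight and 1.38, 1.24 and 1.34 on the ground, and rose by 1.90 (SE 0.30, adjusted p 0.0171). The ground values of both genes lay below the array medians, so both rises may rest in part on the floor. Without flight replicate 4, AT5G37690 missed the threshold, and AT1G74460 missed it without flight replicate 2. On the low-storage arrays their adjusted p were 0.113 and 0.0585, the highest for each over the alternatives (lowest 0.00240 and 0.00328).

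AT3G16370 read 5.26, 5.67 and 5.12 in flight and 2.76, 3.51 and 1.54 on the ground. Here the spread lay on the ground, with an SD of 0.996 against 0.29 in flight, and ground replicate 4 was the low array. The gene rose by 2.74 (SE 0.46, adjusted p 0.0213). It did not pass without flight replicate 2, 3 or 4 in turn, and it had a difference of 2.57 with an adjusted p of 0.0710 when the seed storage mean was a covariate (0.00225 to 0.0955 over the alternatives).

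**Figure D2:**
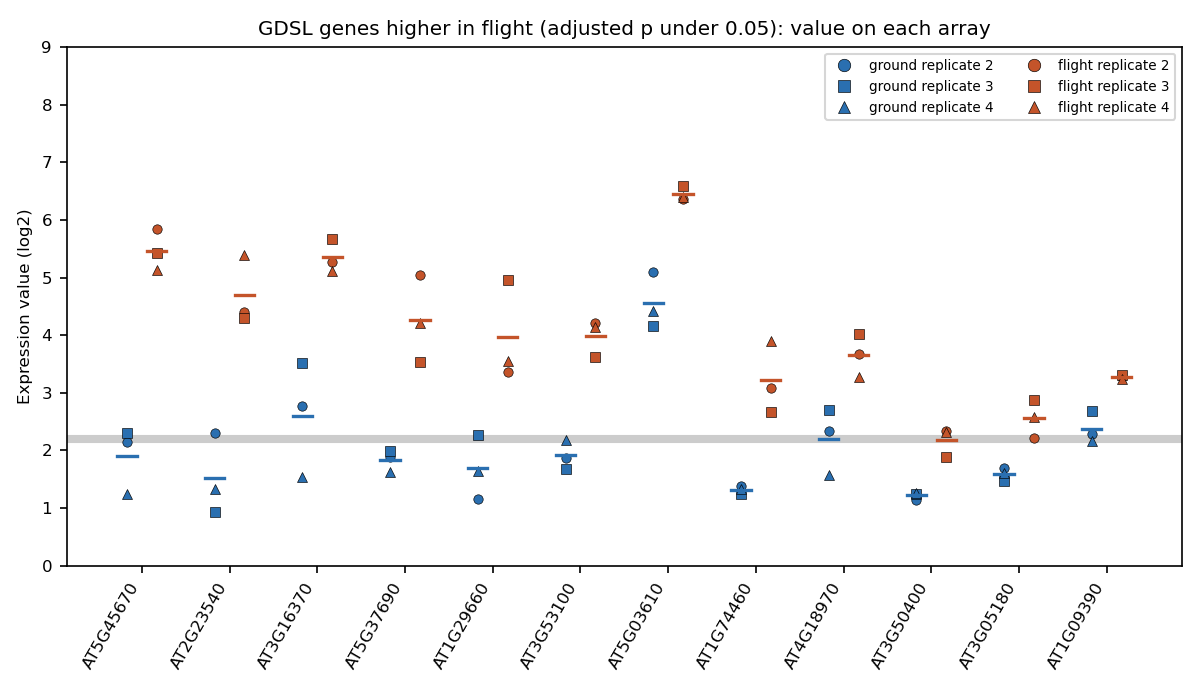
Expression value (log2, y axis) on each array of the 12 GDSL genes higher in flight (x axis, ordered by difference); blue points are ground arrays, orange points flight arrays, marker shape gives the replicate number, short bars are means of 3 arrays and the grey band is the range of array medians. No ground point reaches a flight point of the same gene, and only AT5G03610 has all ground points above the band.

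A further 3 genes rose by less than 1 on the log2 scale. AT3G50400 read 2.34, 1.88 and 2.33 in flight and 1.14, 1.25 and 1.27 on the ground, a difference of 0.96 (adjusted p 0.0238). AT3G05180 read 2.22, 2.87 and 2.58 in flight and 1.70, 1.46 and 1.61 on the ground, also 0.96 (adjusted p 0.0347). Both of these genes were read near the array medians in flight and below them on the ground. AT1G09390 read 3.28, 3.31 and 3.24 in flight, the tightest flight group of the 12 with an SD of 0.039, and 2.29, 2.69 and 2.16 on the ground, a difference of 0.90 (adjusted p 0.0303). After centring on the spike-ins these 3 genes missed the threshold, with adjusted p of 0.168, 0.168 and 0.137, the highest for AT3G50400 and AT1G09390 over the alternatives, while AT3G05180 reached 0.261 on the low-storage arrays (lowest 0.00868, 0.0227 and 0.0195 in the order named). With 1 array left out, each of the 3 passed in 2 of 6 cases. AT3G50400 missed without flight replicates 2 and 4 and ground replicates 3 and 4, AT3G05180 without flight replicates 3 and 4 and ground replicates 3 and 4, and AT1G09390 without any 1 flight array and without ground replicate 4.

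Of the seed fatty acid reducer genes, whose loss raises seed oil, 1 of the 5 measured was called higher and 0 lower. Over all genes 3.47% were called higher and 1.51% lower, and a single call among 5 genes does not describe them as a group. SFAR5 (AT4G18970) was the called member nearest to the threshold. It read 3.68, 4.02 and 3.28 in flight and 2.33, 2.70 and 1.57 on the ground, with ground replicate 4 lowest. Its rise was 1.46 (SE 0.32, adjusted p 0.0449). With single arrays left out it passed in 1 of 6 cases, when ground replicate 3 was absent. It also missed after quantile normalization, median centring and array weighting and with the seed storage covariate (adjusted p 0.0161 to 0.159 over the alternatives).

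SFAR3 (AT2G42990) lay the other way without passing, at 1.01, 1.43 and 1.27 in flight and 1.81, 1.65 and 1.79 on the ground, a difference of -0.51 (adjusted p 0.116). Its groups did not overlap, but every value is below the array medians. SFAR1 (AT1G54790), SFAR2 (AT1G58430) and SFAR4 (AT3G48460) had differences of 0.15, 0.02 and 0.09 and read between 1.01 and 1.71 on all arrays.

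The measured members picked here for a published role in the cuticle read at the low end of the arrays. The cutin synthase gene CUS2 (AT5G33370), needed for the cuticular ridges of sepals, read from 0.91 to 1.46 and had a difference of -0.16 with a 95% interval of -0.58 to 0.26. OSP1 (AT2G04570), a lipase gene needed for the cuticular ledge of the stomatal pore, differed by 0.08 with an interval of -0.28 to 0.45. The cutin synthase family genes CUS4 (AT5G18430) and CUS5 (AT4G28780) differed by -0.11 and 0.08. These 4 genes read below the array median on all 6 arrays, so a change in transcripts too scarce for these probe sets would not be seen. LTL1, a further cutin synthase gene of the family, has no probe set of its own in the annotation used here.

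The pollen coat gene EXL3 (AT1G75900) read 1.35, 1.33 and 1.01 in flight and 2.06, 1.34 and 1.22 on the ground, a difference of -0.31 (adjusted p 0.539). Its family neighbours EXL1, EXL2 and EXL5, listed beside the members because they belong to the same family, stood between 0.90 and 1.54 on all arrays and were not called.

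Several members lie side by side on chromosome 1. From AT1G28570 to AT1G28670 the RefSeq gene order of assembly TAIR10.1 holds 10 protein-coding genes, of which 9 are on the GDSL list and 7 were measured. Of these 7, 0 were called, with differences from -0.42 to 0.39 and adjusted p of at least 0.401. Over all genes 3.47% were called higher and 1.51% lower, so 0 of 7 does not set this stretch apart. AT1G28580 alone was clearly above the array medians, at 5.76, 5.84 and 5.81 in flight and 5.92, 5.26 and 5.06 on the ground, and its difference was 0.39 with an interval of -0.15 to 0.93. The other 6 read between 0.99 and 2.47.

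AT1G29660 and AT1G29670 are next to each other with no gene between them. AT1G29660 read 3.36, 4.96 and 3.56 in flight and 1.16, 2.27 and 1.65 on the ground, with replicate 3 the highest in both groups. It rose by 2.27 (SE 0.46, adjusted p 0.0367). Ground replicates 2 and 4 lay below their array medians, so the size of that rise may rest in part on the floor. With 1 array left out AT1G29660 passed only without ground replicate 3, with a range of adjusted p from 0.00998 to 0.0905 over the alternatives.

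AT1G29670 had the highest mean of all 51 genes. It read 7.17, 7.59 and 6.81 in flight and 4.94, 6.90 and 4.16 on the ground, again with replicate 3 highest in both groups. Ground replicate 3 was above flight replicate 4, so the groups overlapped, and the difference of 1.86 was not called (SE 0.64, adjusted p 0.156). Without ground replicate 3 the difference was 2.64 with an adjusted p of 0.0140 (0.0140 to 0.386 over the alternatives). On the low-storage arrays, with their single ground array, it was 2.44.

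**Figure D3:**
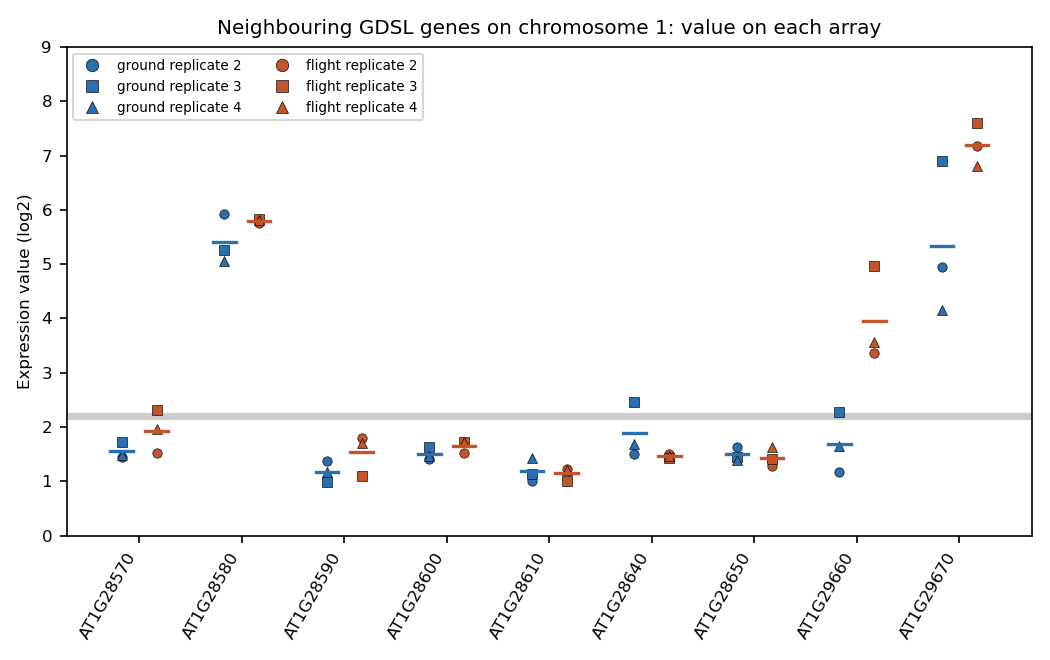
Expression value (log2, y axis) on each array of neighbouring GDSL genes on chromosome 1 (x axis, in gene order); blue points are ground and orange points flight arrays, marker shape gives the replicate number, short bars are means of 3 arrays and the grey band is the range of array medians. AT1G28580 stands near 5.8 in flight among neighbours at or under 2.47, and ground replicate 3 of AT1G29670, at 6.90, lies within the flight points.

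The genes next to the 12 risers were only partly measured. Of the 23 adjacent protein-coding genes that are not on the GDSL list, 10 had a probe set of their own, with differences from -1.01 to 0.28 and a median of -0.30. By limma 0 of the 10 were called, where 3.47% of all genes were higher and 1.51% lower. With shares that small, 0 of 10 does not set these neighbours apart from all genes. The family neighbour AT1G29670, also not called, is described above.

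The remaining 39 genes were not called. Differences ran from -0.74 to 1.86, with 17 above and 22 below 0. For 34 of the 39 the 95% interval lay within 1 log2 unit of 0 on either side, so for these probe sets a change of more than 2-fold as read on the array is outside the interval, and for 5 it reached past that. Of these genes, 2 were higher and 4 lower at an unadjusted limma p under 0.05. The share of all genes at that looser threshold was not counted, so these counts cannot set the list apart.

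The nearest to the threshold on the upper side was AT5G45950, at 2.20, 2.01 and 1.83 in flight and 1.29, 1.49 and 1.30 on the ground, with a difference of 0.65 and an adjusted p of 0.0544. On the lower side it was AT1G71250, at 0.96, 0.88 and 0.97 in flight and 1.58, 1.40 and 1.91 on the ground, with -0.69 and an adjusted p of 0.0602. Both genes lie below the array medians on all 6 arrays and did not overlap between groups. With a trended and robust variance prior they reached adjusted p of 0.0390 and 0.0141, and AT1G71250 reached 0.0499 after median centring, so the count of 0 lower genes depends on the variance prior and the centring (0.0390 to 0.391 and 0.0141 to 0.221 over the alternatives). AT4G10950 had the largest negative difference, -0.74 with an adjusted p of 0.0908. It read 2.26, 2.12 and 1.86 in flight and 2.59, 2.68 and 3.20 on the ground, and was above the array median on every ground array.

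Flight arrays lay above every ground array in 14 of the 51 genes and below every ground array in 4. Over all genes 12.4% lay above and 12.1% below, against 27.5% and 7.84% of the GDSL genes. These shares too describe a list chosen with earlier results known. The 14 are the 12 called genes, AT5G45950 and AT2G03980. The 4 are AT1G71250, AT4G10950, SFAR3 and AT4G01130.

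**Figure D4:**
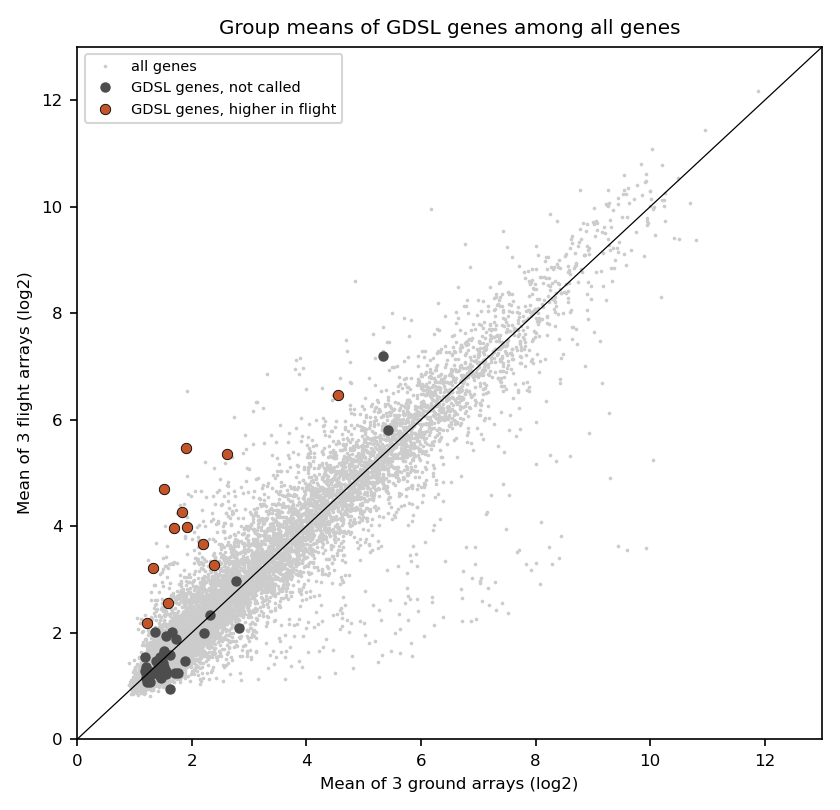
Mean of 3 flight arrays against mean of 3 ground arrays (both log2) for all genes (grey), uncalled GDSL genes (dark) and the 12 GDSL genes higher in flight (orange); the line marks equal means. Most dark points sit at the low end near the line, AT1G29670 is the dark point at 7.19 in flight, and 11 of the 12 orange points have a ground mean between 1.22 and 2.60.

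Level and change went together in this family, in the sense that 10 of the 12 risers were among the 15 members whose mean over all 6 arrays was at or above the median probe set mean, and 2 were among the other 36. Over all genes above that level 7.02% were called higher and 3.15% lower. A gene that is low on the ground can pass such a level through its flight arrays alone, so these counts describe the genes and add no support. Of the 12, 10 were above the array median on all flight arrays, and 5 were below it on all ground arrays.

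Within the groups the risers had no common order of arrays. Flight replicate 3 was the highest flight array for 6 of them and the lowest for 5. Ground replicate 3 was the highest ground array for 6 and the lowest for 5, and ground replicate 4, with its low spike-ins, was the lowest for 5. The median SD of the 12 was 0.34 in flight and 0.38 on the ground, and 6 were more variable on the ground.

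The pathways in which GDSL enzymes act were poorly covered. Of 42 genes of cutin and wax synthesis, 2 had a probe set of their own. These were SHN3, a regulator of cuticle genes, with a difference of -0.04, and WSD1, a wax ester synthase, with -0.40 (adjusted p 0.298), and 0 were called. Of 18 suberin genes 2 were measured, and both were called higher, where 3.47% of all genes were. This list too was chosen with earlier results of these data known, so the count describes 2 genes and does not test the pathway.

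LTPG15 (AT2G48130), a membrane-anchored lipid transfer protein of suberin deposition, read 7.001, 6.60 and 6.19 in flight and 4.81, 4.36 and 3.66 on the ground. It rose by 2.32 (SE 0.33, adjusted p 0.0122), with both groups well above the array medians. Without flight replicate 3 its adjusted p was 0.0642, the highest over the alternatives (lowest 0.00203). FACT (AT5G63560), which joins caffeic acid to fatty alcohols in suberin-associated waxes, read 2.67, 2.45 and 2.45 in flight and 1.77, 1.02 and 1.27 on the ground. It rose by 1.17 (SE 0.21, adjusted p 0.0264) and missed the threshold after spike-in centring and with the seed storage covariate (adjusted p 0.00690 to 0.171 over the alternatives). FACT passed in 1 of 6 cases with an array left out, when ground replicate 2 was absent. Every ground value of FACT lay below the median of its array, so the size of its rise may rest in part on the floor. The 2 genes stand for 18, so the suberin list as a whole was not measured.

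The count of 12 rested on all arrays. It was 6 without flight replicate 2, 6 without flight replicate 3, 5 without flight replicate 4, 10 without ground replicate 2, 11 without ground replicate 3 and 7 without ground replicate 4. With the seed storage mean as a covariate 7 of the 12 passed, and AT3G16370, AT1G29660, SFAR5, AT3G05180 and AT1G09390 did not. On the 3 low-storage arrays, where 1 ground array stands alone, 5 of the 12 passed, with AT1G29670 as a 6th called gene (adjusted p 0.0188). AT1G29670 was also 1 of the 11 called without ground replicate 3, so 10 of the 12 passed there. The sign of the difference was positive for all 12 under every alternative run.

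**Figure D5:**
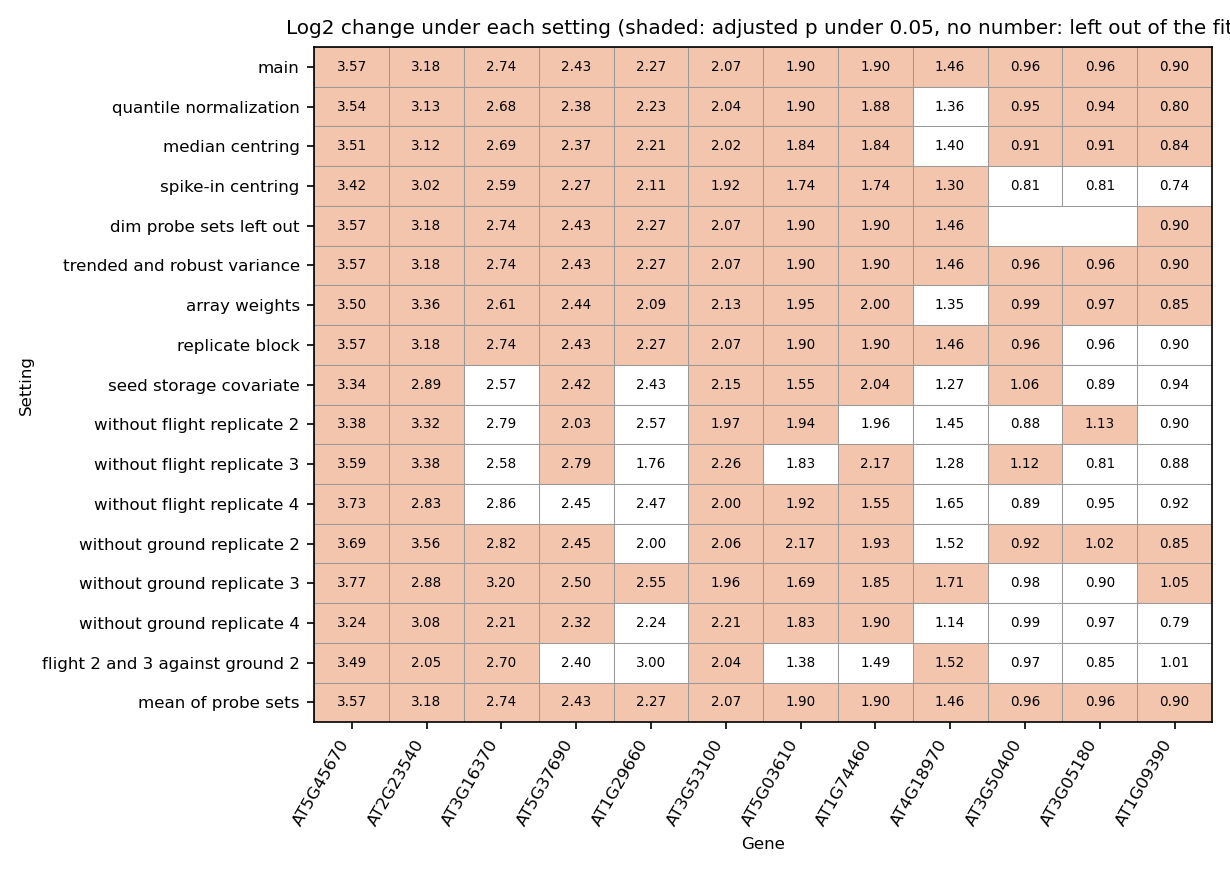
Flight minus ground difference (log2, printed in each cell) of the 12 GDSL genes higher in flight (x axis) under the main fit and each alternative (y axis); shaded cells have an adjusted p under 0.05, and a cell with no number was left out of that fit. AT5G45670, AT2G23540 and AT3G53100 are shaded in every row, and the differences stay positive throughout.

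The 9 listed loci without a value were AT1G20130, AT1G23500, GLIP6, LTL1 and CDEF1, for which the annotation used here names no probe set, and AT1G28660, ARAB-1, AT2G30220 and AT3G26430, whose probe sets are shared with another gene. All 51 measured genes are read by a probe set with the plain suffix that the array's makers gave to sets meant for a single transcript. Cross-reading between close family copies could not be checked without probe sequences.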

How the data were processed

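The deposited table gives 1 log2 expression value per probe set and array, as deposited by the authors, for 22810 probe sets on 6 arrays. RNA was extracted with a column kit, amplified and biotin-labelled, per the labels' protocols. Per the submitters' processing notes, PLIER, MAS5 and RMA were among the tools. The sources used here state neither their roles nor the background correction and filters. The range of the values gave the log base. The deposited values were used without further normalization.

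The 64 control probe sets were not tested. Probe sets with 1 gene in the platform annotation (13513) were matched to RefSeq genes of assembly TAIR10.1 by gene identifier (13436) or locus tag (48), 29 kept the annotation's symbol, and no coordinates are printed. Each gene kept the probe set with the highest mean over all arrays. Of the 51 genes, 0 had more than 1.

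The flight and ground arrays were set against each other in limma 3.58.1 under R 4.3.3 (lmFit, then eBayes; two-sided, without covariates, Benjamini-Hochberg over 22746 probe sets, called at an adjusted p under 0.05). Errors are limma's SE and 95% intervals, and SD are over 3 arrays. The procedure was tested on simulated data for this comparison of 22746 probe sets: 45 of 100 changed by 1 log2 unit and 83 of 100 changed by 2 were called, with 9 false calls. The simulated noise was normal and independent between probe sets. It lacked deviations shared by many genes, such as those of the seed storage transcripts, so false calls in the real data may be more frequent. The number of arrays limits the precision.

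Genes named are the called members, the 6 with the highest means, the 4 uncalled with the largest differences and those nearest the threshold. Members on a fixed list of known roles or mutant names are also named, as are the measured genes of the cutin and suberin lists. That list of roles may not be complete, so a member given no role here is not shown to lack one. AT2G03980 and AT4G01130 were named after their values were seen. Members and lists were chosen with earlier results of these data known. Python 3.11.15 and matplotlib 3.10.9 drew the figures.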

Additional observations from a re-analysis of the deposited data

How the results depend on the processing

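Alternatives changed 1 choice at a time. The number of GDSL genes higher in flight, 12 as reported, stayed within 1.5 times under every alternative with all 6 arrays except the seed storage covariate (7). It was 5 to 11 with 1 array left out and 6 on the 3 arrays low in seed storage transcripts (flight replicates 2 and 3 with ground replicate 2, which there has no replicate). The number lower, 0 as reported, was 1 with median centring, 1 with the trended and robust variance prior and 2 at an adjusted p under 0.1. The median difference of the GDSL genes, 0.080, was 0.11 after quantile normalization, 0.023 after median centring, 0.043 with the seed storage covariate, -0.073 after spike-in centring, -0.0079 on the 3 low-storage arrays and 0.022 to 0.112 with 1 array left out. It was 1.90 once dim probe sets were left out, where 15 genes remain and 10 of them are risers of the main fit. A gene low on the ground can pass that filter through its flight arrays alone, so this value adds no support. Over all probe sets 939 were higher and 413 lower. Spike-in centring gave 470 higher, the covariate 415, the low-storage arrays 346, leaving out 1 array 188 to 1124 higher and 83 to 782 lower, and an adjusted p under 0.1 gave 1532 and 750. The suberin count of 2 was 1 with spike-in centring, without dim probe sets, with the covariate and on the low-storage arrays, and 0 to 2 with 1 array left out. The cutin and wax counts stayed at 0 under every alternative that kept these genes; leaving out dim probe sets removed both. The cause of these changes was not tested.

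Same-numbered flight and ground arrays did not all deviate together (correlations of 0.20, -0.03 and 0.27 for replicates 2, 3 and 4). Flight replicates 2 and 4 correlated best with the ground array of their own number, and flight replicate 3 with ground replicate 2 (0.22). These are correlations of deviations from means of 3 arrays. They cannot tell whether same-numbered arrays share hardware or handling. With the replicate block 10 GDSL genes were higher and 0 lower, with 733 and 373 over all probe sets.

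Among single named genes, 57 comparisons with an alternative lost the threshold, 5 gained it, 402 kept their side and 0 called values changed sign. Uncalled named members changed sign in 20 of 213 comparisons. Genes below the array medians have no detection call, so small differences there are limited by signal over background.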
